A study of Mus musculus with 23 samples.

Results

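Zinc finger genes of the mouse Zfp series were followed through a lipopolysaccharide (LPS) response in macrophages that had been grown in culture from mouse bone marrow (BMDMs). The genes described are the protein-coding genes whose symbol is Zfp followed by exactly 3 digits and whose mean level over all 23 libraries was 1 or more; they were thus chosen by their measured levels. Levels are the authors' nRPKM: RPKM, which divides reads by gene length and by library depth, adjusted further by 1 factor per library. Of 316 protein-coding genes with such a symbol, 158 reached the threshold, among 52636 genes in the tables. Levels are therefore given as a description, without a test. The 3 members just inside the threshold were Zfp748, Zfp994 and Zfp983 with means of 1.05, 1.03 and 1.02 nRPKM, and the 3 genes just outside were Zfp560, Zfp984 and Zfp993 with 0.979, 0.958 and 0.939 nRPKM. Libraries of polyadenylated RNA were labelled Stk40 knockout (KO; Stk40 encodes a pseudokinase) or wild type (WT). Each genotype was sampled at T0, labelled untreated, and after LPS, a cell wall component of Gram-negative bacteria, at T6, T16 and T32. WT at T16 had 2 libraries and each of the other 7 groups had 3. The labels give no unit of time, no LPS dose, and no strain or age of the mice. They also do not say that replicates are separate mice or separate cultures, and p-values therefore reflect only how these libraries spread, which may be technical.

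Most proteins of this kind bind DNA through arrays of C2H2 zinc fingers, each a short fold held by a zinc ion between cysteines and histidines. A large subset also carries a KRAB domain, which recruits the corepressor Trim28 (KAP1) and through it the histone methyltransferase Setdb1, heterochromatin proteins and histone deacetylases, and this subset is best known for silencing transposable elements. KRAB zinc finger genes arose by repeated local duplication and lie in clusters of related copies. Members without a KRAB domain are more varied and include transcriptional regulators, RNA-binding proteins and a spindle protein.

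The libraries held 19455080 to 44097733 counts, and the 158 members together took 0.259% to 0.492% of them. Stk40 RNA was not lower in the libraries labelled KO: its mean over the 4 time points was higher by 0.32 ± 0.08 on the log2 scale (SE; adjusted p = 0.0063), a call lost under scaling by library totals (adjusted p = 0.0755). Loss of an exon is not visible in a count per gene. The groups are therefore called KO-labelled and WT-labelled, and every direction between them rests on those labels. A WT-labelled library of each time point held Y-linked transcripts (replicate 2 at T0 and T16, replicate 1 at T6 and replicate 3 at T32), and these transcripts were near 0 in the other libraries. WT-labelled T16 replicate 2 also stood apart in the acute-phase gene Saa3, with 16214 nRPKM against 7276 nRPKM in replicate 1, and in having the lowest share of counts in members. At T6, replicate 2 of each genotype had the highest Saa3 of its group (8684 nRPKM in KO-labelled and 8178 nRPKM in WT-labelled). KO-labelled T0 replicate 1 stood apart from the other T0 libraries: 0.355% of its counts were mitochondrial, against 1.42% and 1.82% in the other KO-labelled and 1.38% to 1.68% in the WT-labelled T0 libraries. All 10 macrophage markers averaged 1 nRPKM or more in every group. The 6 markers of neutrophils and their precursors summed to 183 to 221 nRPKM in KO-labelled and 92.2 to 177 nRPKM in WT-labelled libraries at T0, and to 21.4 to 33.2 nRPKM in KO-labelled and 12.7 to 18.2 nRPKM in WT-labelled libraries at T32. Their part in the differences below was not tested. In bulk RNA, fewer cells of a type and less RNA per cell cannot be told apart.

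Members were mostly of low abundance. Their median mean level was 3.05 nRPKM, against 8.35 nRPKM over the 9442 protein-coding genes at 1 nRPKM or more; 106 of the 158 averaged below 5 nRPKM and 19 averaged 10 nRPKM or more. The lowest count of a member in a library was 7 and the median was 379, so all 158 passed the filter on low counts and were tested among 15782 genes. In 113 members all 8 group means were 1 nRPKM or more. In the other 45 at least 1 group mean was below 1 nRPKM, so these were kept through the groups in which they were higher, and 21 excluded genes had a group mean of 1 nRPKM or more.

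The 8 most abundant members were Zfp263 (62.3 nRPKM), Zfp513 (33.8), Zfp207 (26.6), Zfp710 (26.2), Zfp821 (22.3), Zfp740 (17.5), Zfp384 (16.2) and Zfp703 (16.1). None of their proteins matched the KRAB patterns searched, which does not show that they lack a KRAB domain. Zfp263 had 48.2, 56.5 and 51.6 nRPKM in KO-labelled and 44.5, 35.7 and 37.1 nRPKM in WT-labelled libraries at T0, and 117, 124 and 133 nRPKM in KO-labelled and 106, 134 and 115 nRPKM in WT-labelled libraries at T6. At T16 it had 44.1, 43 and 49.5 nRPKM in KO-labelled and 47.5 and 26.5 nRPKM in WT-labelled libraries, and at T32 39.1, 36.7 and 41.3 nRPKM in KO-labelled and 35.1, 35.8 and 31.8 nRPKM in WT-labelled libraries. The T6 libraries of both genotypes lay well above every library of the other times, and at T6 against T0 Zfp263 rose by 1.15 ± 0.16 on the log2 scale in KO-labelled and 1.51 ± 0.16 in WT-labelled macrophages. Zfp207 (BuGZ), a microtubule-binding protein that helps load the checkpoint protein Bub3 in mitosis, was also highest at T6, with 53.4, 40.5 and 58.4 nRPKM in KO-labelled and 46, 37.6 and 45.5 nRPKM in WT-labelled libraries at T6, against 17.4, 17 and 18 nRPKM in KO-labelled and 15.5, 15.3 and 16.8 nRPKM in WT-labelled libraries at T0. It rose by 1.43 ± 0.14 in KO-labelled and 1.35 ± 0.14 in WT-labelled macrophages. Zfp384 (CIZ), a nuclear matrix-associated transcription factor, was not called at T6 in either genotype (adjusted p = 0.12 in KO-labelled and 0.24 in WT-labelled macrophages), averaging 15.2 ± 2.11, 19.6 ± 2.13, 16 ± 1.15 and 14.7 ± 0.673 nRPKM (SD, n = 3) in KO-labelled libraries at T0, T6, T16 and T32. Zfp703, a corepressor of the NET family with no C2H2 match, took the opposite course to Zfp263 at T6, with 7.14, 11 and 7.76 nRPKM in KO-labelled and 7.61, 11 and 7.79 nRPKM in WT-labelled libraries, all below the T0 libraries, which had 17.3, 19 and 18.4 nRPKM in KO-labelled and 23.9, 21.9 and 17 nRPKM in WT-labelled libraries. It fell by 1.19 ± 0.17 in KO-labelled and by 1.34 ± 0.17 in WT-labelled macrophages. Reads carry no strand, and exons of Snx17 overlap 6.58% of the exon bases of Zfp513, so part of its count may belong to that gene.

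**Figure D1:**
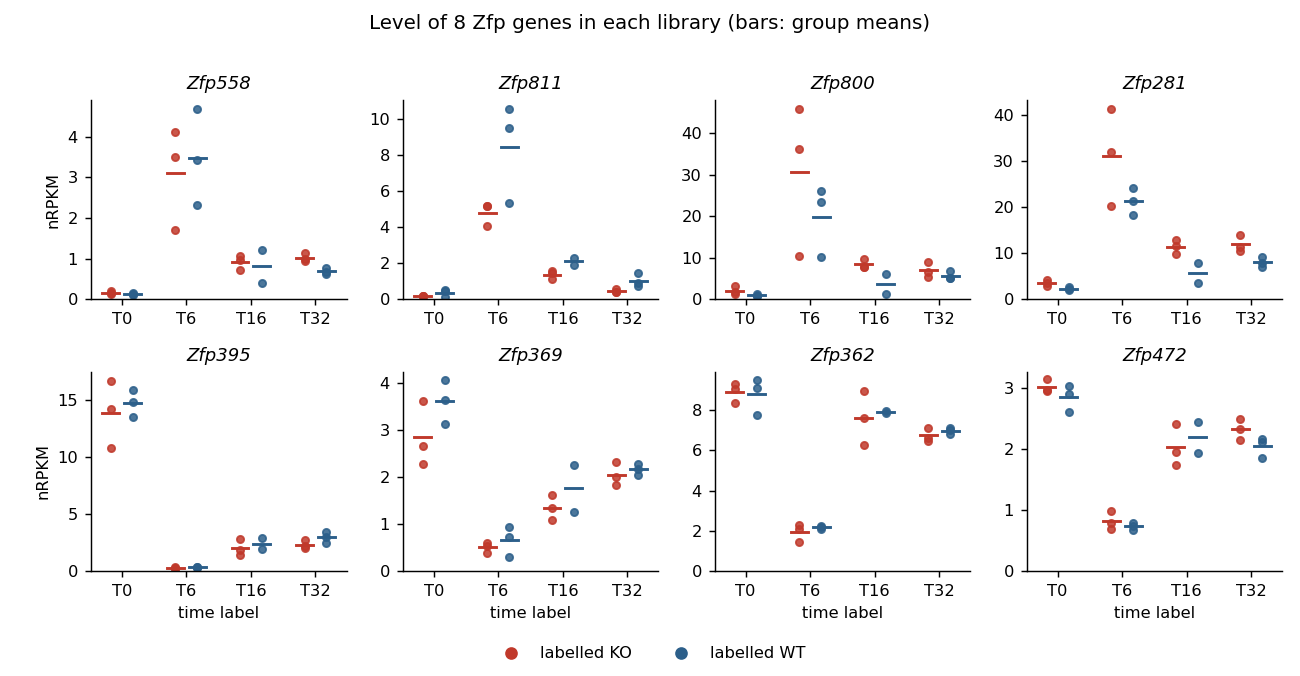
Level of 8 members in every library, in nRPKM on linear axes of their own, by time label (T0 untreated, T6, T16 and T32 with LPS); points are libraries, KO-labelled (red) left of WT-labelled (blue) at each time, and bars are group means. Zfp558, Zfp811, Zfp800 and Zfp281 are highest at T6, and Zfp395, Zfp369, Zfp362 and Zfp472 are lowest at T6, where Zfp395 lies at 0.172 to 0.389 nRPKM.

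The translated coding sequences separated the members by domain. A KRAB A box was matched in 62 of 158 members (39.2%), against 115 of the 158 three-digit genes below the threshold (72.8%). These shares describe which genes the threshold kept, and 0.239% of 19633 coding genes with no zinc finger name matched the same patterns. How many KRAB domains the patterns miss was not measured. Members without a KRAB match may therefore include some that carry the domain, here and in the comparisons below. At least 1 C2H2 finger was matched in 154 members, with a median of 9 and a maximum of 37 fingers. KRAB members had a median of 11 fingers and members without a KRAB match had 7. In the genome (GRCm38, GENCODE release M21 gene models), 55 members lay in 11 groups of 3 or more with neighbouring starts at most 300 kb apart, and 36 of these 55 were KRAB members. Chromosome 7 held 38 members and chromosome 17 held 21. Since the authors counted uniquely aligning reads, members with close copies may have lost reads at shared sequence, and their levels are uncertain to that extent.

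Most members changed with LPS at T6, about as large a share as among all genes. In KO-labelled macrophages 35 of 158 members rose and 60 fell at T6 against T0, where 58.6% of all genes tested were called (26.2% higher and 32.4% lower). In WT-labelled macrophages 33 rose and 61 fell, where 59.1% of all genes tested were called (27.3% higher and 31.9% lower). The median log2 difference of members was -0.21 in KO-labelled and -0.22 in WT-labelled macrophages, beside -0.17 in KO-labelled and -0.14 in WT-labelled macrophages over all genes. A gene counts as called at an adjusted p under 0.05 (edgeR quasi-likelihood test, Benjamini-Hochberg over all 15782 genes). The split depended on scaling: TMM factors scale libraries so that the typical gene does not differ, and with library totals in their place 13 members rose and 115 fell in KO-labelled and 14 rose and 113 fell in WT-labelled macrophages. Library totals shifted the median over all genes as well, to -1 in KO-labelled and -0.94 in WT-labelled macrophages, so changes are read relative to the other genes.

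The 6 strongest rises at T6 in WT-labelled macrophages, among called members whose groups did not overlap, were those of Zfp558, Zfp811, Zfp800, Zfp281, Zfp719 and Zfp871. Zfp558, Zfp811, Zfp719 and Zfp871 are among the 45 members with a group mean below 1 nRPKM and were kept through their LPS libraries, so the threshold in part sets that they rose. Zfp811, a KRAB gene of chromosome 17, had 5.19, 4.04 and 5.19 nRPKM at T6 against 0.164, 0.202 and 0.164 nRPKM at T0 in KO-labelled macrophages. In WT-labelled macrophages it had 9.48, 10.5 and 5.32 nRPKM at T6 against 0.441, 0.504 and 0.148 nRPKM at T0. The groups did not overlap, and the log2 difference was 4.65 ± 0.38 in KO-labelled and 4.48 ± 0.37 in WT-labelled macrophages. Zfp558, a KRAB gene of chromosome 9, had 4.1, 1.69 and 3.51 nRPKM at T6 against 0.167, 0.215 and 0.123 nRPKM at T0 in KO-labelled macrophages, and 4.67, 2.32 and 3.43 nRPKM against 0.123, 0.165 and 0.108 nRPKM in WT-labelled macrophages. It was near absent before LPS, and its log2 difference was 4.09 ± 0.41 in KO-labelled and 4.65 ± 0.43 in WT-labelled macrophages.

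Zfp281, a regulator of pluripotency genes in embryonic stem cells with no KRAB match, was among the more abundant members after LPS. It had 32, 20.3 and 41.4 nRPKM at T6 against 4.11, 2.87 and 3.58 nRPKM at T0 in KO-labelled macrophages, and 21.4, 18.4 and 24.2 nRPKM against 2.26, 2.04 and 2.73 nRPKM in WT-labelled macrophages. Every T6 library lay far above every T0 library, and the log2 difference was 3.04 ± 0.27 in KO-labelled (adjusted p = 7.6e-09) and 3.10 ± 0.27 in WT-labelled macrophages (adjusted p = 6.2e-09). Zfp800 had 36.1, 10.4 and 45.7 nRPKM at T6 against 3.1, 1.32 and 1.83 nRPKM at T0 in KO-labelled macrophages, and 23.4, 10.1 and 26.1 nRPKM against 0.927, 0.887 and 1.38 nRPKM in WT-labelled macrophages. KO-labelled T0 replicate 1 was the highest T0 library of Zfp800. Replicate 2 of each genotype, the T6 libraries with the highest Saa3, had the lowest Zfp800 of their groups. Even so the T6 libraries stayed above all T0 libraries, and the log2 difference was 3.77 ± 0.55 in KO-labelled (adjusted p = 6.2e-06) and 4.13 ± 0.56 in WT-labelled macrophages (adjusted p = 2.8e-06). Zfp719 (KRAB, chromosome 7) rose by 2.75 ± 0.27 in KO-labelled and 2.60 ± 0.27 in WT-labelled macrophages. Zfp871 rose less evenly: it had 4.36, 0.866 and 4.58 nRPKM at T6 against 1.71, 0.419 and 0.538 nRPKM at T0 in KO-labelled macrophages, where the groups overlapped, and 1.65, 1.09 and 3.15 nRPKM against 0.339, 0.545 and 0.583 nRPKM in WT-labelled macrophages, where they did not. Its log2 difference was 1.76 ± 0.70 in KO-labelled (adjusted p = 0.036) and 1.91 ± 0.72 in WT-labelled macrophages (adjusted p = 0.027), and the call in WT-labelled macrophages was lost in 5 of the other settings tried, with adjusted p of 0.0543 to 0.166.

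The largest fall in either genotype was that of Zfp395, whose human orthologue binds a regulatory region of the Huntington disease gene. It had 0.326, 0.236 and 0.172 nRPKM at T6 against 10.8, 16.6 and 14.1 nRPKM at T0 in KO-labelled macrophages. In WT-labelled macrophages it had 0.301, 0.363 and 0.389 nRPKM at T6 against 14.8, 15.8 and 13.5 nRPKM at T0. The groups lay far apart, and the log2 difference was -5.92 ± 0.30 in KO-labelled (adjusted p = 2.8e-12) and -5.48 ± 0.29 in WT-labelled macrophages (adjusted p = 5.1e-12). Zfp362 had 2.3, 1.44 and 2.07 nRPKM at T6 against 9.06, 9.32 and 8.35 nRPKM at T0 in KO-labelled macrophages, and 2.17, 2.1 and 2.24 nRPKM against 9.1, 9.52 and 7.78 nRPKM in WT-labelled macrophages. Its groups did not overlap, and it fell by 2.30 on the log2 scale in KO-labelled and by 2.10 in WT-labelled macrophages (adjusted p = 1.4e-10 and 4.4e-10). Zfp369 (Nrif2), a KRAB relative of the neurotrophin receptor interactor Nrif, fell by 2.61 in KO-labelled and by 2.60 in WT-labelled macrophages (adjusted p = 6.5e-07 and 5.8e-07). Zfp692 (AREBP), a phosphorylation-controlled repressor of a gluconeogenic gene, fell by 2.22 in KO-labelled (adjusted p = 4.8e-06) and by 1.95 in WT-labelled macrophages (adjusted p = 2e-05), with KO-labelled T0 libraries that spread over 5.59 to 15 nRPKM. Zfp157, a KRAB gene, fell by 1.67 in KO-labelled (adjusted p = 1.8e-07) and by 1.80 in WT-labelled macrophages (adjusted p = 6.9e-08). Zfp472, which neighbours Zfp811, also fell and is described with its promoter below. Zfp395, Zfp369, Zfp157 and Zfp472 too had a group mean below 1 nRPKM, at T6, and were kept through their other libraries, so the same holds for their falls.

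**Figure D2:**
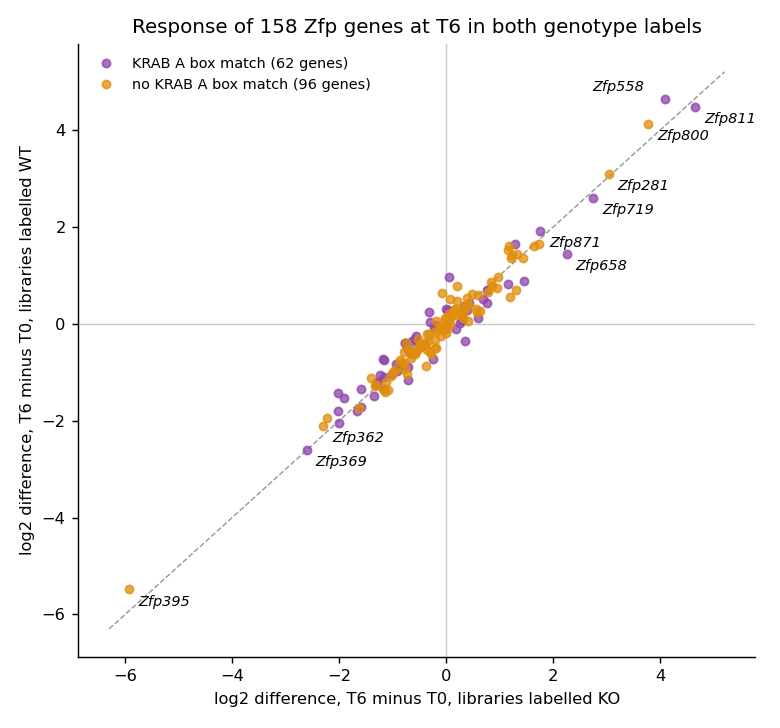
Log2 difference of each of the 158 members at T6 against T0, in KO-labelled macrophages on the x axis and in WT-labelled macrophages on the y axis; purple points have a KRAB match, orange points have none, and the dashed line marks equal responses. The points lie along the line from Zfp395 (-5.92 and -5.48) to Zfp811 (4.65 and 4.48).

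Responses of the 2 genotypes, which come from different libraries, ran in parallel across members. Pearson's r over the 158 members was 0.975 at T6, 0.905 at T16 and 0.928 at T32; this describes genes of the same samples, which are not independent replicates. At T6, 84 members were called in both genotypes, 88.4% of those called in KO-labelled and 89.4% of those called in WT-labelled macrophages, and all 84 had the same direction. Over all genes tested these shares were 88.9% in KO-labelled and 88.1% in WT-labelled macrophages, and all 8223 genes called in both had the same direction. At T16 there were 41 such members, 61.2% of those called in KO-labelled and 82% of those called in WT-labelled macrophages, beside 63.7% and 77.4% over all genes. At T32 there were 37, 75.5% of those called in KO-labelled and 60.7% of those called in WT-labelled macrophages, beside 79.3% and 65.3% over all genes. The members' shares lay near those of all genes at each time.

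Fewer members were called later in the response. At T16 against T0, 25 members rose and 42 fell in KO-labelled macrophages, where 43.7% of all genes tested were called (20.4% higher and 23.3% lower), and 16 rose and 34 fell in WT-labelled macrophages, where 36.0% were called (18.8% higher and 17.2% lower). At T32 against T0, 25 rose and 24 fell in KO-labelled macrophages, where 38.2% of all genes tested were called (18.2% higher and 20% lower), and 26 rose and 35 fell in WT-labelled macrophages, where 46.4% were called (24.5% higher and 21.9% lower). The T32 count in KO-labelled macrophages, 49 in all, was 25 without T0 replicate 2, 32 without T32 replicate 1 and 25 without T32 replicate 2. With library totals the splits were 8 higher and 88 lower at T16 and 8 higher and 68 lower at T32 in KO-labelled macrophages, and 7 higher and 84 lower at T16 and 10 higher and 64 lower at T32 in WT-labelled macrophages. Members that were higher than T0 at all 3 LPS times numbered 15 in KO-labelled and 11 in WT-labelled macrophages, and those lower at all 3 numbered 15 in KO-labelled and 19 in WT-labelled macrophages. Zfp281, Zfp800, Zfp811, Zfp719, Zfp558, Zfp324, Zfp319, Zfp710 and Zfp821 were higher throughout in both genotypes, and Zfp395, Zfp740, Zfp598, Zfp579, Zfp524, Zfp652, Zfp629 and Zfp956 were lower throughout in both. By group means, 60, 55, 13 and 30 members were highest at T0, T6, T16 and T32 in KO-labelled macrophages, and 68, 50, 6 and 34 in WT-labelled macrophages. Neither these counts nor those of members higher or lower at all 3 LPS times were made over all genes. They describe the members and do not set them apart from other genes.

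Zfp821, the fifth most abundant member, was called at every LPS time in both genotypes. It had 8.54, 13.7 and 10.5 nRPKM at T0, 26.6, 31.1 and 22.2 nRPKM at T6, 29.1, 28.6 and 27.2 nRPKM at T16 and 26.3, 25.2 and 25.8 nRPKM at T32 in KO-labelled macrophages, so all 9 LPS libraries lay above the 3 untreated ones. At T16 it rose by 1.36 ± 0.26 in KO-labelled (adjusted p = 0.00036) and 1.66 ± 0.29 in WT-labelled macrophages (adjusted p = 0.00015), where the WT-labelled T16 libraries had 19 and 41.1 nRPKM. Zfp182, a KRAB gene of the X chromosome, had 2.79, 2.86 and 2.44 nRPKM at T16 against 2.86, 6 and 5.91 nRPKM at T0 in KO-labelled macrophages, and 1.42 and 1.01 nRPKM against 5.21, 4.93 and 3.75 nRPKM in WT-labelled macrophages. It fell by 0.89 ± 0.30 in KO-labelled (adjusted p = 0.022) and by 1.93 ± 0.36 in WT-labelled macrophages (adjusted p = 0.00031), and in KO-labelled macrophages the highest T16 library lay level with the lowest T0 library, replicate 1, which has the low mitochondrial share. Zfp326 (ZIRD), a subunit of the DBIRD complex that links RNA polymerase II elongation to splicing, fell by 0.72 ± 0.20 in KO-labelled (adjusted p = 0.0064) and by 1.13 ± 0.23 in WT-labelled macrophages (adjusted p = 0.00065) at T16. Zfp524 fell at T16 by 1.39 in KO-labelled and 1.31 in WT-labelled macrophages (adjusted p = 0.0049 and 0.018), where the WT-labelled call was lost without T16 replicate 1 (adjusted p = 0.19). It fell at T32 by 1.17 in KO-labelled and 1.46 in WT-labelled macrophages (adjusted p = 0.016 and 0.003). Exons of Gm44973, a gene with few counts, overlap 46.5% of its exon bases. At T32 Zfp775 fell by 0.89 in KO-labelled and by 1.33 in WT-labelled macrophages (adjusted p = 0.0088 and 0.0003). Zfp688, a KRAB gene, fell by 1.25 in WT-labelled macrophages (adjusted p = 0.0046), while its difference in KO-labelled macrophages was -0.77 (adjusted p = 0.069). Zfp871 was higher by 2.42 ± 0.72 at T32 in WT-labelled macrophages (adjusted p = 0.01), with a difference of 1.56 ± 0.69 in KO-labelled macrophages (adjusted p = 0.081).

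Among KRAB members, more fell than rose at T6 against T0, and more rose than fell at T32 against T6. At T6 against T0, 12 of 62 KRAB members rose and 29 fell in KO-labelled macrophages (median log2 difference -0.50), and 11 rose and 26 fell in WT-labelled macrophages (median -0.40). More of all genes tested also fell than rose. The shares were 26.2% higher and 32.4% lower in KO-labelled and 27.3% higher and 31.9% lower in WT-labelled macrophages. Of the 96 members without a KRAB match, 23 rose and 31 fell in KO-labelled (median -0.09) and 22 rose and 35 fell in WT-labelled macrophages (median -0.11). At T32 against T6, 33 KRAB members rose and 10 fell in KO-labelled macrophages (median 0.61), and 26 rose and 8 fell in WT-labelled macrophages (median 0.36). Over all members, 56 rose and 27 fell at T32 against T6 in KO-labelled macrophages, where 49.7% of all genes tested were called (26.4% higher and 23.3% lower), and 49 rose and 29 fell in WT-labelled macrophages, where 50.5% were called (27.5% higher and 23% lower). Median-ratio scaling (DESeq2 size factors) gave 42 higher and 35 lower members in KO-labelled and 41 higher and 33 lower in WT-labelled macrophages, and library totals gave 93 higher and 13 lower in KO-labelled and 87 higher and 11 lower in WT-labelled macrophages. At T32 against T0, 11 KRAB members were higher and 1 was lower in KO-labelled macrophages, and 9 were higher and 12 were lower in WT-labelled macrophages, where the shares of all genes given above were 18.2% higher and 20% lower in KO-labelled and 24.5% higher and 21.9% lower in WT-labelled macrophages. That split turned round in KO-labelled macrophages with library totals, which gave 4 higher and 22 lower in KO-labelled and 5 higher and 21 lower in WT-labelled macrophages, while median-ratio scaling gave 12 higher and 2 lower in KO-labelled and 10 higher and 13 lower in WT-labelled macrophages. At T6 against T0, median-ratio scaling gave 15 higher and 26 lower KRAB members in KO-labelled and 13 higher and 24 lower in WT-labelled macrophages. Library totals gave 5 higher and 47 lower in KO-labelled and 5 higher and 46 lower in WT-labelled macrophages. Members without a KRAB match moved down with library totals as well. They gave 8 higher and 68 lower in KO-labelled and 9 higher and 67 lower in WT-labelled macrophages. That scaling therefore does not tell KRAB members from the others. At T32 against T6, median-ratio scaling gave 24 higher and 13 lower KRAB members in KO-labelled and 23 higher and 10 lower in WT-labelled macrophages. Library totals gave 44 higher and 5 lower in KO-labelled and 37 higher and 4 lower in WT-labelled macrophages. With library totals, members without a KRAB match moved up too, with 49 higher and 8 lower in KO-labelled and 50 higher and 7 lower in WT-labelled macrophages. The difference between KRAB and other members was not tested.

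**Figure D3:**
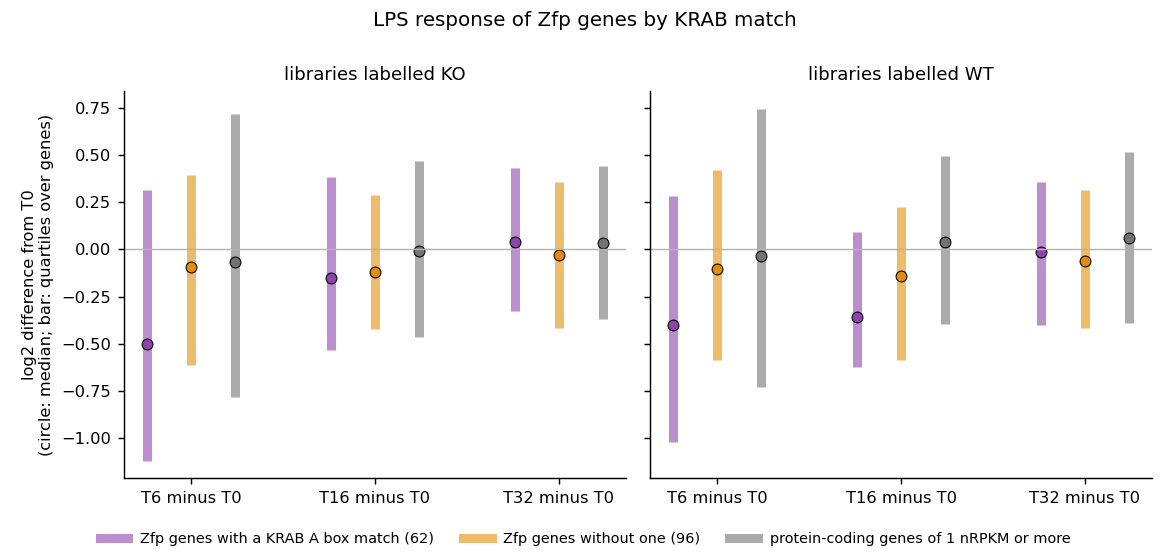
Median and quartiles of the log2 difference from T0 at T6, T16 and T32, in KO-labelled (left) and WT-labelled macrophages (right). The genes are 62 KRAB members, 96 members without a KRAB match and protein-coding genes of 1 nRPKM or more. Circles are medians and bars span the quartiles over genes. With TMM scaling, as drawn, the KRAB median is lowest at T6, at -0.50 in KO-labelled and -0.40 in WT-labelled macrophages. With DESeq2 size factors it was -0.314 at T6 and -0.345 at T16 in WT-labelled macrophages.

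Zfp809, a KRAB protein that silences retroviral DNA in embryonic stem cells through Trim28, followed this course. It had 1.44, 0.715 and 1.44 nRPKM at T6 against 2.52, 2.92 and 2.5 nRPKM at T0 in KO-labelled macrophages, and 1.19, 1.09 and 1.56 nRPKM against 2.84, 1.84 and 2.81 nRPKM in WT-labelled macrophages. All T6 libraries lay below all T0 libraries, and at T32 it was back at 2.79, 2.54 and 2.59 nRPKM in KO-labelled and 3.21, 2.74 and 2.48 nRPKM in WT-labelled libraries. The fall at T6 was 1.24 ± 0.25 in KO-labelled (adjusted p = 0.00023) and 1.05 ± 0.25 in WT-labelled macrophages (adjusted p = 0.0011). Zfp445, a KRAB protein that helps maintain genomic imprints, averaged 10.5 nRPKM over all libraries, and its T6 difference was -0.23 ± 0.21 in KO-labelled (adjusted p = 0.36) and -0.07 ± 0.21 in WT-labelled macrophages (adjusted p = 0.79). Zfp568, which represses a placental Igf2 transcript, averaged 1.4 ± 0.247 nRPKM at T6 and 0.97 ± 0.2 nRPKM at T0 in KO-labelled macrophages (SD, n = 3), and the difference did not pass the test in either genotype at T6. Among the members with the largest rises at T32 against T6 in WT-labelled macrophages were Zfp395 (3.18 ± 0.27, adjusted p = 1.1e-08), Zfp369 (1.87 ± 0.31, adjusted p = 4.5e-05), Zfp362 (1.78 ± 0.15, adjusted p = 1.1e-08) and Zfp677 (1.61 ± 0.49, adjusted p = 0.0094). The same differences in KO-labelled macrophages were 3.33, 2.13, 1.90 and 1.66, and each was called. Among the largest falls in WT-labelled macrophages were those of Zfp811 (-2.94), Zfp558 (-2.25), Zfp503 (-1.95) and Zfp800 (-1.73), with -3.23, -1.50, -1.17 and -2.03 in KO-labelled macrophages. Zfp395, Zfp369, Zfp811, Zfp558 and Zfp503 each had a group mean below 1 nRPKM, so the threshold in part sets these changes as well.

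Members with known gene-regulatory roles outside the KRAB system were described as a list of 24. At T6, 10 rose and 4 fell in KO-labelled and 9 rose and 5 fell in WT-labelled macrophages. The median log2 difference was 0.33 in KO-labelled and 0.32 in WT-labelled macrophages. Of all genes tested, 26.2% rose and 32.4% fell in KO-labelled and 27.3% rose and 31.9% fell in WT-labelled macrophages. With library totals the counts of the list turned round, to 2 higher and 14 lower in KO-labelled and 3 higher and 11 lower in WT-labelled macrophages. Zfp143, which binds many promoters near their start, rose by 0.85 ± 0.16 in KO-labelled and 0.78 ± 0.16 in WT-labelled macrophages (adjusted p = 0.00013 and 0.00032). Zfp131 rose by 1.23 in KO-labelled and 1.43 in WT-labelled macrophages (adjusted p = 0.00014 and 2.9e-05), and Zfp592 and Zfp687, which form a complex with Zmynd8, rose by 0.49 and 0.59 in KO-labelled and by 0.61 and 0.58 in WT-labelled macrophages. Zfp652, a partner of the corepressor Cbfa2t3, fell by 1.15 in KO-labelled and by 1.41 in WT-labelled macrophages (adjusted p = 3.2e-06 and 2.3e-07), and exons of Abi3 overlap 18.9% of its exon bases. Zfp318, required for IgD expression in B cells, fell by 0.79 in KO-labelled and by 0.80 in WT-labelled macrophages (adjusted p = 0.004 and 0.0035). Of 12 members known for roles in RNA, translation, mitosis, ubiquitin or SUMO biology, 1 rose and 4 fell in each genotype. The shares of all genes are those just given for T6, so these counts do not set the list apart. With library totals 1 rose and 10 fell in each. The riser was Zfp207. Zfp598, the ubiquitin ligase that marks collided ribosomes, had 8.33, 9.91 and 9.29 nRPKM at T6 against 14.3, 16.1 and 13.9 nRPKM at T0 in KO-labelled macrophages, and 6.95, 9.3 and 9.72 nRPKM against 16.7, 14.4 and 15.4 nRPKM in WT-labelled macrophages. No T6 library reached a T0 library, and Zfp598 fell by 0.79 ± 0.13 in KO-labelled (adjusted p = 3e-05) and by 0.93 ± 0.13 in WT-labelled macrophages (adjusted p = 4.7e-06). Zfp346, which binds double-stranded RNA, fell by 1.34 in KO-labelled and by 1.28 in WT-labelled macrophages (adjusted p = 9.9e-06 and 1.7e-05), and Zfp706 fell by 0.85 in KO-labelled and by 0.79 in WT-labelled macrophages.

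The partners through which KRAB proteins silence DNA were read from a list of 38 symbols, with TMM scaling. Resf1 was not found under that symbol and Sumo3 matched more than 1 gene, and 36 genes were tested. At T6, 6 rose and 10 fell in KO-labelled and 6 rose and 11 fell in WT-labelled macrophages. Of all genes tested, 58.6% were called in KO-labelled and 59.1% in WT-labelled macrophages. Setdb1, which writes the H3K9 methyl mark, had 5.53, 5.35 and 5.12 nRPKM at T6 against 12.4, 13.3 and 13.8 nRPKM at T0 in KO-labelled macrophages, and 5.36, 5.87 and 5.39 nRPKM against 13.1, 14.1 and 14.5 nRPKM in WT-labelled macrophages. The groups were far apart, and it fell by 1.42 ± 0.13 in KO-labelled and by 1.41 ± 0.13 in WT-labelled macrophages (adjusted p = 8.4e-09 and 8.7e-09). Trim28 itself had a difference of -0.19 ± 0.13 in KO-labelled macrophages (adjusted p = 0.22) and fell by 0.51 ± 0.13 in WT-labelled macrophages (adjusted p = 0.0028). Daxx, a histone H3.3 chaperone, rose by 2.77 ± 0.23 in KO-labelled and 3.58 ± 0.24 in WT-labelled macrophages, and Hdac1, Morc3, Pphln1 and Gatad2a rose by 1.23 to 1.5 in KO-labelled and 1.47 to 1.6 in WT-labelled macrophages, all called.

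Neighbouring members did not all move together. With TMM scaling, 5 of the 11 genomic groups held both rising and falling members at T6 in each genotype, 2 had only rising and 4 only falling members called in KO-labelled macrophages, and 3 had only rising and 3 only falling members called in WT-labelled macrophages. Of all genes tested, 26.2% rose and 32.4% fell in KO-labelled and 27.3% rose and 31.9% fell in WT-labelled macrophages, so mixed groups may be common. Groups of other genes, and these groups with library totals, were not counted. The widest spread was in a group of 4 KRAB genes on chromosome 17 (GRCm38, 32765496 to 33005457): Zfp871, Zfp811, Zfp472 and Zfp952, with 15, 14, 13 and 9 finger matches. Zfp472, on the plus strand at 32965814 to 32979233, had 0.686, 0.979 and 0.794 nRPKM at T6 against 2.97, 2.96 and 3.15 nRPKM at T0 in KO-labelled macrophages, and 0.676, 0.745 and 0.792 nRPKM against 2.91, 2.61 and 3.04 nRPKM in WT-labelled macrophages. It was lower in every T6 library and fell by 2 ± 0.17 in KO-labelled (adjusted p = 5.5e-09) and by 2.04 ± 0.18 in WT-labelled macrophages (adjusted p = 4.5e-09). Zfp811, on the minus strand at 32795676 to 32809931, rose as given above, and Zfp952 had a difference of 0.30 ± 0.14 in KO-labelled (adjusted p = 0.067) and 0.07 ± 0.14 in WT-labelled macrophages (adjusted p = 0.68). On chromosome 7, Zfp719 and Zfp658 rose side by side, Zfp658 by 2.25 ± 0.20 in KO-labelled and 1.44 ± 0.20 in WT-labelled macrophages (adjusted p = 9e-09 and 3.1e-06), while Zfp382 rose by 1.28 in KO-labelled and 1.64 in WT-labelled macrophages in a group in which Zfp146 fell by 1.40 in KO-labelled and by 1.12 in WT-labelled macrophages. Zfp658, like Zfp719, had a group mean below 1 nRPKM and was kept through other groups, so the threshold in part sets that it rose.

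**Figure D4:**
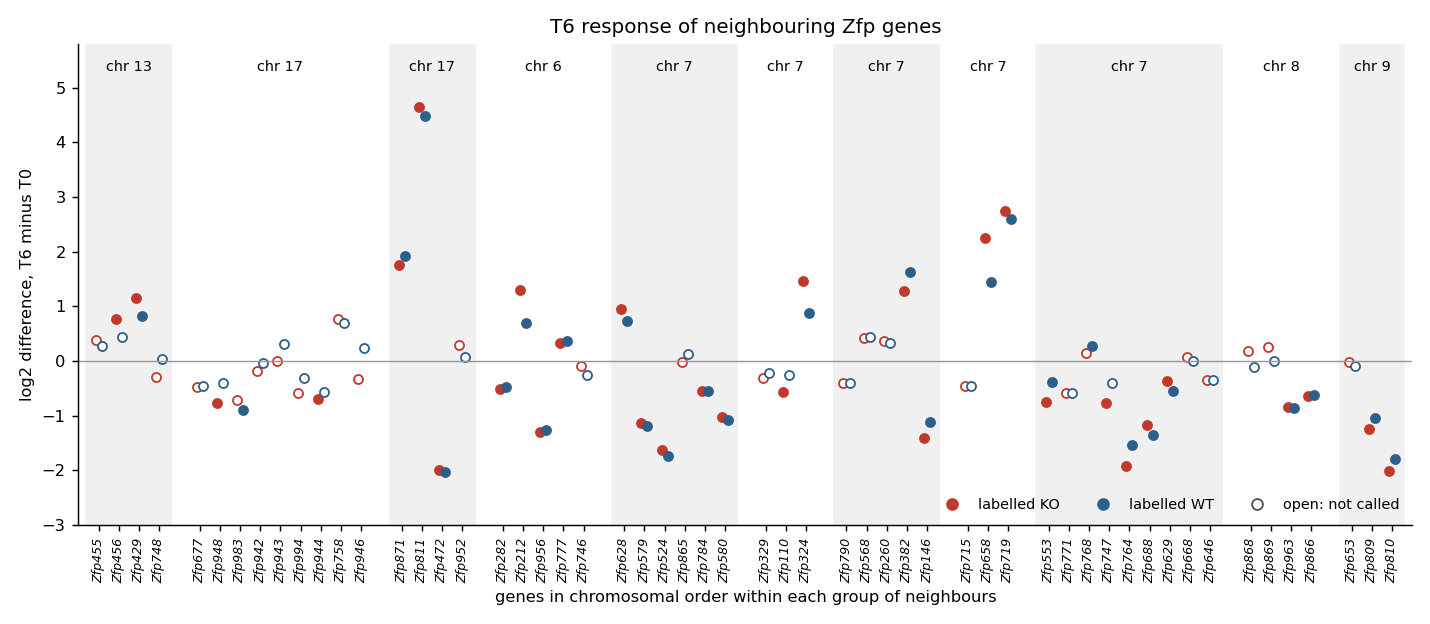
Log2 difference at T6 against T0 of the 55 members that lie in 11 genomic groups, in order along each group, KO-labelled left of WT-labelled; filled points passed the test. The chromosome 17 group of Zfp871, Zfp811, Zfp472 and Zfp952 spans -2.04 to 4.48 in WT-labelled macrophages.

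The promoters of 3 genes of this group, and of 3 members elsewhere that rose or fell strongly at T6, are printed to show the letters around the starts of neighbouring genes with opposite responses. Each is the RefSeq promoter (GRCm38.p6) of 250 bases before to 50 after the start, 5′ to 3′ on the gene's strand, with matches to the motifs listed after them in capitals. They are chr17:32809882-32810181 for Zfp811 (minus strand), chr17:32788238-32788537 for Zfp871 (minus), chr17:32965581-32965880 for Zfp472 (plus), chr1:136624651-136624950 for Zfp281 (plus), chr7:43579336-43579635 for Zfp719 (plus) and chr11:58306819-58307118 for Zfp692 (plus).
Zfp811: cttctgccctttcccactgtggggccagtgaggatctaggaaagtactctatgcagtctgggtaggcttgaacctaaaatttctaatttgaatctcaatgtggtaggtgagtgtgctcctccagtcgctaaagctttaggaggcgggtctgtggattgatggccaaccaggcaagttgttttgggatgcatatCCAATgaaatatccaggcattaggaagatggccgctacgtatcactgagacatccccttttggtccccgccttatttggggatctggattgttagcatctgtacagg
Zfp871: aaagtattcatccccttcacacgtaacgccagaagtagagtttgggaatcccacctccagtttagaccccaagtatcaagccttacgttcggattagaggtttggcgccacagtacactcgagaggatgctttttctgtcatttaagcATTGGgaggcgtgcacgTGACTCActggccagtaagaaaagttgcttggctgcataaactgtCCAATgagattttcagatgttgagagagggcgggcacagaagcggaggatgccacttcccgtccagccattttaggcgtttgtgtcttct
Zfp472: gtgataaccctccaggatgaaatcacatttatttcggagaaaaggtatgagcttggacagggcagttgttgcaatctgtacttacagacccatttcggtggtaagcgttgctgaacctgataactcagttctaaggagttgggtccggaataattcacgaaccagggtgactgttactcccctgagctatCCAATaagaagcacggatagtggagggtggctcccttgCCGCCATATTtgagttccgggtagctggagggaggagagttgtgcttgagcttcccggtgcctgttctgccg
Zfp281: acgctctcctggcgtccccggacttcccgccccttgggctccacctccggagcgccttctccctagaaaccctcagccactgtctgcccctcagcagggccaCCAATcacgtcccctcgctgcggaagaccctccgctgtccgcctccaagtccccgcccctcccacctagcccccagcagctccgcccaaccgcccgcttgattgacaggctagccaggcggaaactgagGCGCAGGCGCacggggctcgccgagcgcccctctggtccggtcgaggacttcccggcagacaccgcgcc
Zfp719: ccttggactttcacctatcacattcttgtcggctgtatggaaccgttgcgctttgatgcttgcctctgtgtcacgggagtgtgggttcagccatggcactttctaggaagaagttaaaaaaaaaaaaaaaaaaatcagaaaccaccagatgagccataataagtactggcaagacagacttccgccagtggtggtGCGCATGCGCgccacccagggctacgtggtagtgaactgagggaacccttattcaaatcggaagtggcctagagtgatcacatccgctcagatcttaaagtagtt
Zfp692: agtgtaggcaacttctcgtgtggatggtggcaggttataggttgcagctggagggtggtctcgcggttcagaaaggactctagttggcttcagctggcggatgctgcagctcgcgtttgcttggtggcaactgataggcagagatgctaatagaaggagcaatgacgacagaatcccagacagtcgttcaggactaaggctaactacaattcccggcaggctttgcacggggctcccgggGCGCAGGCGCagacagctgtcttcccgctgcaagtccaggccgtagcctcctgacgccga

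The capitals mark a CCAAT box (CCAAT) in Zfp811, Zfp871, Zfp472 and Zfp281, an AP-1 motif (TGANTCA, where N is any base) in Zfp871, a YY1-like motif (AA and ATGGCGG with 1 base between them) in Zfp472 and an NRF1-like motif (GCGC and TGCGC with 1 base between them) in Zfp281, Zfp719 and Zfp692. Each motif was searched on both strands, and motifs may overlap. Promoters were found for 132 members, 165 promoters in all, among 32851 promoters of the same length. The kB-like motif (GGG and TTCC with 3 bases between them) resembles the site of NF-κB, which LPS activates. It was in 6.06% of members' promoters and 5.56% of all promoters. At T6 in WT-labelled macrophages it was in 1 of 39 promoters of members that rose (2.56%) and 4 of 64 of members that fell (6.25%). These numbers are too small to compare. The interferon response-like motif (GAAA repeated with 2 bases between) was in 1.21% of members' promoters and 3.44% of all, and AP-1 was in 4.85% and 7.81%. The ETS-like motif CCGGAAG was in 18.8% of members' promoters and 8.86% of all, the NRF1-like motif in 10.3% and 4.60%, the YY1-like motif in 4.85% and 1.36%, the cyclic AMP motif TGACGTCA in 3.64% and 1.79%, and CCAAT in 43.6% and 37.4%. These are counts of letters in these windows and say nothing of binding.

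Between genotypes few members differed at a single time. At T0 no member was called by edgeR or by DESeq2, and 6 of 158 had an unadjusted p under 0.05, where 1.95% of all genes tested were called (1.83% higher and 0.114% lower). At T6, where 0.298% of all genes tested were called (0.209% higher and 0.0887% lower), 1 member was called. Zfp324, a KRAB gene of chromosome 7, had 3.55, 2.94 and 3.22 nRPKM in KO-labelled and 1.59, 1.57 and 2.01 nRPKM in WT-labelled libraries. The groups did not overlap, and it was higher in KO-labelled libraries by 0.88 ± 0.15 (adjusted p = 0.01). The difference without replicate 2 of both genotypes was 0.875 (adjusted p = 0.0636), and the call was also lost in 7 other settings. At T0, T16 and T32 its difference was 0.30, 0.18 and 0.05, and none of these was called.

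At T16, where 7.64% of all genes tested were called (4.16% higher and 3.48% lower), 1 member was higher and 1 lower in KO-labelled libraries, and both rest on WT-labelled replicate 2. Median-ratio scaling gave 3 higher and 1 lower, library totals gave 0 higher and 5 lower, and the DESeq2 test gave 13 higher and 4 lower. Zfp281 had 12.9, 9.76 and 11.7 nRPKM in KO-labelled and 7.83 and 3.61 nRPKM in WT-labelled libraries, a difference of 0.98 ± 0.29 (adjusted p = 0.044). All KO-labelled libraries were above both WT-labelled ones, but without WT-labelled replicate 2 the difference was 0.52 (adjusted p = 0.496) and without replicate 1 it was 1.66 (adjusted p = 0.00223). Zfp511 had 7.25, 7.47 and 8.5 nRPKM in KO-labelled and 9.71 and 13.3 nRPKM in WT-labelled libraries, a difference of -0.58 ± 0.15 (adjusted p = 0.027), and -0.35 (adjusted p = 0.387) without WT-labelled replicate 2. Exons of Tubgcp2, which had 182% of the counts of Zfp511, overlap 9.95% of its exon bases. The number of members called at T16 was 0 without WT-labelled replicate 2, 56 (48 higher and 8 lower) without WT-labelled replicate 1, 0 without KO-labelled replicate 1 or 2, and 1 without KO-labelled replicate 3.

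At T32, where 6.39% of all genes tested were called (3.05% higher and 3.34% lower), Zfp503 was higher and Zfp811 lower in KO-labelled libraries, while median-ratio scaling gave 1 higher and 0 lower, and library totals gave 1 higher and 2 lower. Zfp503, a NET family corepressor related to Zfp703, had 1.58, 1.61 and 1.33 nRPKM in KO-labelled and 0.727, 0.674 and 1.01 nRPKM in WT-labelled libraries. The groups did not overlap, the difference was 0.89 ± 0.18 (adjusted p = 0.0055), and it stayed called when each T32 library was left out in turn (highest adjusted p = 0.0487). At T0, T6 and T16 the difference was 0.04, 0.12 and 0.52, none of them called. Zfp811 had 0.589, 0.41 and 0.432 nRPKM in KO-labelled and 0.718, 0.922 and 1.46 nRPKM in WT-labelled libraries. Its groups did not overlap, but the difference of -1.13 ± 0.34 (adjusted p = 0.049) lay at the threshold and was -0.81 (adjusted p = 0.206) without WT-labelled replicate 3. Zfp503 in WT-labelled and Zfp811 in KO-labelled libraries had T32 means below 1 nRPKM. Both genes were kept through groups in which they were higher, so the member threshold in part sets these differences.

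Averaged over the 4 time points, 12 members were higher and 3 lower in KO-labelled libraries, 9.49% of 158, where 22.3% of all genes tested were called (12.1% higher and 10.3% lower). With library totals the split was 2 higher and 33 lower, and the median difference of members was 0.08 with TMM and -0.10 with library totals, beside -0.02 and -0.19 over all genes. The number called was 56 (50 higher and 6 lower) without WT-labelled T16 replicate 1, 35 without KO-labelled T6 replicate 2 and 8 without the 4 WT-labelled libraries with Y-linked RNA. The 6 largest called rises were Zfp800 (0.75 ± 0.26, adjusted p = 0.043), Zfp281 (0.66 ± 0.13, adjusted p = 0.0014), Zfp991 (0.65 ± 0.15, adjusted p = 0.0053), Zfp654 (0.47 ± 0.15, adjusted p = 0.029), Zfp319 (0.43 ± 0.11, adjusted p = 0.0068) and Zfp429 (0.42 ± 0.10, adjusted p = 0.0056). Zfp800 lost its call in 18 other settings and Zfp654 in 9, each of them also without KO-labelled T0 replicate 1 (adjusted p = 0.0875 and 0.0532). With library totals Zfp319 (adjusted p = 0.0516) and Zfp429 (0.0565) also lost theirs, as did Zfp991 without the 4 WT-labelled libraries with Y-linked RNA (0.0501). The 3 lower members were Zfp811 (-0.91 ± 0.17, adjusted p = 0.00098), Zfp580 (-0.54 ± 0.15, adjusted p = 0.013) and Zfp511 (-0.28 ± 0.07, adjusted p = 0.0095). Zfp811 was kept through groups in which it was higher, so the member threshold in part sets its averaged difference as well. The same may hold for other called members with a group mean below 1 nRPKM. Without the same 4 WT-labelled libraries Zfp511 was not called (adjusted p = 0.0777), and Zfp580 lost its call in 2 settings (adjusted p = 0.0651 to 0.132). Zfp319, a C2H2 gene without a KRAB match, had 6.49, 3.9 and 3.92 nRPKM in KO-labelled and 3.66, 3.15 and 3.6 nRPKM in WT-labelled libraries at T0, and 9.02, 9.29 and 8.58 nRPKM in KO-labelled and 6.87, 5.93 and 7.38 nRPKM in WT-labelled libraries at T32. Its groups did not overlap at either time, and the difference was 0.40 to 0.47 at each of the 4 times. KO-labelled T0 replicate 1 was the highest T0 library, and without it the averaged difference was 0.36 (adjusted p = 0.0111). Of the 158 members, values of single libraries separated the genotypes in 15 at T0, 18 at T6, 59 at T16 and 49 at T32. Over all genes the shares separated were 15.0%, 11.2%, 42.0% and 36.2%. As a share, the members lay below all genes at T0, T16 and T32 and near them at T6. With 2 WT-labelled libraries at T16, groups separate more easily there.

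**Figure D5:**
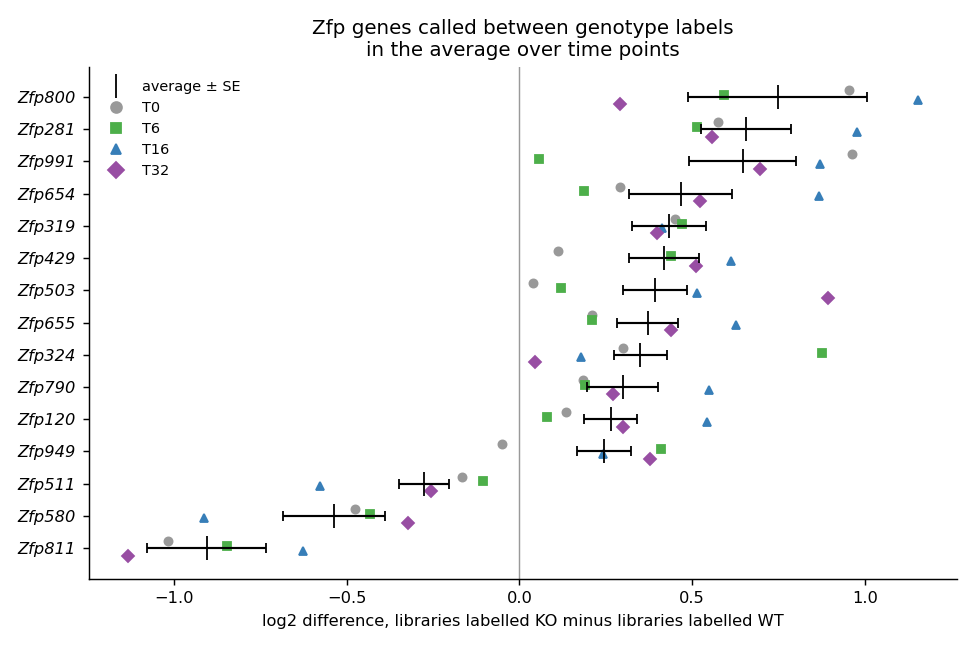
Log2 difference of KO-labelled against WT-labelled libraries averaged over the 4 time points, with SE, for the 15 members called, and the differences at each time. Zfp800 is highest at 0.75 and Zfp811 lowest at -0.91.

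No member was called by the joint test, over T6, T16 and T32, of whether its difference between genotypes changed with LPS (edgeR 0 of 158 called, 5 at an unadjusted p under 0.05; DESeq2 called 1), where 0.456% of all genes tested were called. The 6 members with the lowest p were Zfp324 (adjusted p = 0.21), Zfp503 (0.31), Zfp691 (0.35), Zfp213 (0.37), Zfp658 (0.48) and Zfp410 (0.59). Zfp658 had 4.46, 4.64 and 4.22 nRPKM in KO-labelled and 2.67, 3.41 and 2.89 nRPKM in WT-labelled libraries at T6, and 0.738, 1.1 and 0.768 nRPKM in KO-labelled and 0.881, 1.1 and 1.12 nRPKM in WT-labelled libraries at T0. The genotypes did not overlap at T6 and overlapped at T0. Zfp410, the activator of the chromatin remodeller gene Chd4, had 4.5, 4.89 and 5.33 nRPKM in KO-labelled and 5.8, 5.43 and 5.86 nRPKM in WT-labelled libraries at T0, and 4.48, 4.33 and 4.36 nRPKM in KO-labelled and 3.89 and 3.6 nRPKM in WT-labelled libraries at T16. The order of the genotypes was opposite at these times, and neither difference was called. Among the silencing partners, Daxx was higher in KO-labelled libraries at T0, with 70.2, 65 and 64.2 nRPKM against 27.1, 37.9 and 22.1 nRPKM in WT-labelled libraries (1.19 ± 0.22, adjusted p = 0.0034). At T16, Trim28, Mbd3 and Suv39h1 were lower in KO-labelled libraries by 0.51, 0.81 and 0.44 (adjusted p = 0.0395, 0.00483 and 0.0384). Without WT-labelled T16 replicate 2 the difference of Trim28 was -0.40 and that of Mbd3 was -0.49. Without replicate 1 they were -0.61 and -1.07, so both sizes depended on which of these libraries was kept. Each of these refits kept only 1 WT-labelled T16 library, so they cannot show that the calls of Trim28 and Mbd3 at T16 hold. Trim28 lost its call at T16 when any 1 of the KO-labelled T16 libraries was left out (adjusted p = 0.0809 to 0.126). Its call was also lost when any 1 of the WT-labelled T0 libraries was left out (adjusted p = 0.0585 to 0.0591). Suv39h1 lost its call at T16 when any 1 of the KO-labelled T16 libraries was left out (adjusted p = 0.0816 to 0.118). Its difference was -0.36 without WT-labelled T16 replicate 1 and -0.51 without replicate 2. At T32, Chd3, Mbd3 and Suv39h1 were lower in KO-labelled libraries by 0.55, 0.50 and 0.41 (adjusted p = 0.0106, 0.0425 and 0.033). Leaving out any 1 of the 6 T32 libraries ended the calls of Mbd3 (adjusted p = 0.057 to 0.212) and Suv39h1 (0.0551 to 0.167), and Chd3 lost its call without KO-labelled replicate 3 (0.0752) or WT-labelled replicate 2 (0.0556).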

How the data were processed

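Polyadenylated RNA from 23 libraries was sequenced as unstranded single-end reads of 50 bases, per the labels' protocols. Reads were aligned with GSNAP to GRCm38, per the submitters' processing notes, with no version or counting program named there. The deposited tables hold raw counts of uniquely aligning reads for Ensembl genes. They also hold nRPKM, which the file headers describe as RPKM adjusted by size factors that the authors set.

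Tests used the deposited counts with edgeR 4.0.16 in R 4.3.3: 15782 genes passed filterByExpr, TMM factors ran from 0.677 to 1.45, and a quasi-likelihood model with 1 mean per genotype and time was fitted to all 23 libraries. Genes were called at 0.05 after Benjamini-Hochberg adjustment across the 15782. The fit was run on simulated counts with known changes for KO against WT at T0 only, with the spread estimated from these data. The other comparisons were not checked in this way. DESeq2 1.42.0, library totals, DESeq2 size factors, no filter, the compared groups alone, thresholds of 0.5 and 2 nRPKM, and each library left out were alternatives. Refits of 5 silencing partner genes were added after the data were seen. The counts of a member in a library ran down to 7, where counting error is large.

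Members and lists were chosen with earlier results of these data known. Named members were the 8 most abundant; the 6 (T6), 4 (T16) and 4 (T32) largest called changes against T0 in each direction in WT among those without overlap; the 4 largest each way at T32 against T6; up to 6 called each way between genotypes; the 6 with the lowest joint p; and members with known roles. KRAB and finger patterns were searched in translated GENCODE M21 coding sequences, a step added after the files were seen.

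The authors' sample table numbers the replicates, and the labels do not say what a number marks. Deviations of same-numbered KO and WT libraries correlated at 0.329, 0.593 and 0.357 at T6, so the T6 comparison was also fitted with the number as a block, which called 1 member, as without it.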

Additional observations from a re-analysis of the deposited data

How the results depend on the processing

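Of 860 repeated tests of named genes under the other settings, 788 kept direction and call, 71 lost the call, 1 gained it and 0 reversed. Counts of called members moved as follows; the cause was not tested unless the setting itself removes genes or libraries. KO against WT at T6 (1 called) gave 0 at a member threshold of 2 nRPKM, with library totals, without the filter, with only the groups compared, without both T6 replicates 2 (chosen after seeing the data) and without the 4 WT libraries that hold Y-linked transcripts, and 3 with DESeq2. At T16 (2) it gave 4 at a threshold of 0.5 nRPKM, 4 with DESeq2 size factors, 17 with DESeq2, 5 with library totals, 0 without the filter, 0 with only the groups compared and 0 without the 4 WT libraries. At T32 (2) it gave 1 at a threshold of 2 nRPKM, with DESeq2 size factors, without the filter and without the 4 WT libraries, and 13 with only the groups compared. The average (15) gave 28 with DESeq2, 35 with library totals, 32 without both T6 replicates 2 and 8 without the 4 WT libraries. Among LPS comparisons, a threshold of 2 nRPKM gave 62 at T6 in WT, 63 at T6 in KO and 51 at T32 against T6 in KO; library totals gave 91 at T16 in WT and 76 at T32 in KO; leaving out the 4 WT libraries gave 32 at T16 in WT. DESeq2 called 1 member in the joint test.

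Leaving out 1 library at a time gave, between genotypes, 0 to 1 at T0 and at T6, 0 to 56 at T16, 1 to 2 at T32 and 11 to 56 for the average; against T0, 80 to 92, 36 to 59 and 41 to 52 in WT and 86 to 100, 51 to 71 and 25 to 60 in KO at T6, T16 and T32; at T32 against T6, 68 to 77 in KO and 62 to 72 in WT; and 0 to 9 in the joint test. The average was 56 without WT T16 replicate 1 and 35 without KO T6 replicate 2, the joint test gave 9 without WT T16 replicate 1, and T32 against T0 in KO (49) was 25 without KO T0 replicate 2, 32 without KO T32 replicate 1 and 25 without KO T32 replicate 2.

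With the sample table's replicate number as a block within time points, added after seeing the data, KO against WT called 0 members at T0, 1 at T6, 8 at T16, 1 at T32 and 28 on average. Same-numbered pairs correlated at 0.0976, 0.155 and 0.0733 at T0, 0.0505 and 0.00635 at T16, and 0.033, -0.317 and -0.203 at T32. With so few libraries per group, these values cannot show whether same-numbered libraries outside T6 share more than a number.

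WT at T16 had 2 libraries, which limits every comparison that uses it. Low counts limit the least abundant members, and reads without strand or from close copies limit overlapping and duplicated genes.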
